A study of Mus musculus with 4 samples.

Results

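The interleukin and interleukin receptor regions described here are the accessible chromatin peaks that the authors' deposited annotated table assigned to a gene whose symbol starts with Il and a digit, leaving out Il34, chosen by symbol and not by any measured value. There were 281 such peaks of 68 genes among 80881 peaks of 18759 genes in the whole table, and each of the 281 was a window of 401 bp. Of 83 RefSeq genes with such a symbol, 15 had no assigned peak, among them Il4, Il22, Il2rg, the common chain of many lymphocyte cytokine receptors, and Il10ra. ATAC-seq, whose transposase cuts and tags open DNA, was run on mouse lung adenocarcinoma cells that the labels call KPC cells and describe as a KP LUAD line. The group mA2 dRNA received CRISPR activation aimed at Malat1, a nuclear long noncoding RNA, and the group Con dRNA received the same system aimed at luciferase. Both groups carry a lentiviral Cas9 selected with puromycin and a lentiviral SAM activation vector, and each comprises 2 libraries from biological replicate cell samples of this single line. Nothing in the labels says whether those samples came from separate transductions.

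Interleukins are secreted signals through which immune, epithelial and stromal cells instruct each other. IL-1 family ligands act through receptors with a Toll-like signalling domain that lead to NF-kappaB, IL-17 family ligands act through adaptors that converge on the same factor, and most other interleukins act through paired receptor chains, JAK kinases and STAT factors. Several chains are shared: Il1rap serves IL-1, IL-33 and IL-36 receptors, Il6st (gp130) serves IL-6 and IL-11, Il2rb serves IL-2 and IL-15, and Il10rb serves IL-10 and IL-22. In lung tumours such cytokines are known mainly from exchanges between carcinoma cells and the leukocytes around them. Open chromatin at a gene is permissive for its transcription but does not measure it, and no RNA was analysed here.

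Levels are group means of normalized reads per peak, as the authors computed them, in mm10 coordinates, and a difference is the log2 mean with mA2 dRNA minus the log2 mean with Con dRNA. Called peaks are those that the authors' deposited table lists with an adjusted p under 0.05, at any fold. The table's 4 per-library columns carry names found in none of the sample labels and were left unused, so no value here has a standard deviation, and library depths are unknown. Summed over all peaks, the means with mA2 dRNA were 1.07 times those with Con dRNA. In these bulk cultures a peak opened in more cells and a peak opened further in each cell cannot be told apart. As a check of the label, 4 of 6 epithelial and lung adenocarcinoma markers had a promoter peak (Krt8, Krt18, Cdh1 and Hmga2, at 130 to 613 with mA2 dRNA and 68.7 to 474 with Con dRNA), while Epcam and the lung lineage factor Nkx2-1 had none. None of 6 leukocyte markers had one, including Ptprc, the pan-leukocyte antigen, and Spi1. Of the other markers, Col1a1 had a promoter peak at 555 with mA2 and 516 with Con dRNA and Kdr at 54.4 with mA2 and 32.0 with Con dRNA, while Pecam1 and Pdgfra had none.

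The promoter sequences under these peaks differ widely in composition. RefSeq promoter sequences (GRCm38.p6, the mm10 assembly) were found for 54 of the 68 genes, in 66 windows of 250 bases directly before a start site, and 28 windows of 24 genes overlapped a peak. That is 42.4% of the interleukin-family windows and 36.1% of all 32851 windows. The first pair of windows belongs to gp130 and to the IL-4 receptor alpha chain, whose start sites were among the most open of the family, with CpG dinucleotides in capitals. The Il6st window lies at chr13:112463820-112464069 and the Il4ra window at chr7:125552021-125552270, both on the plus strand.
Il6st: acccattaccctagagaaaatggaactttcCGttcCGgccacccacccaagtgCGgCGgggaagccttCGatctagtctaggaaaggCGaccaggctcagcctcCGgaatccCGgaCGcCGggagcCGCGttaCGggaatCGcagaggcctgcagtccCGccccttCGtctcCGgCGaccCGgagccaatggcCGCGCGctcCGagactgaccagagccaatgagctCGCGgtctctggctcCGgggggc
Il4ra: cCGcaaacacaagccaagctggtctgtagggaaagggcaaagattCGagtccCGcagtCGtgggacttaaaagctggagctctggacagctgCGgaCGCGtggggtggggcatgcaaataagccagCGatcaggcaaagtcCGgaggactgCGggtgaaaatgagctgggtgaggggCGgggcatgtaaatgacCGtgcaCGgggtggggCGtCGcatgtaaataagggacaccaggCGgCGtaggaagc

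The Il6st window holds 26 CpG dinucleotides and the Il4ra window 17. The median was 6 for interleukin-family windows with a peak and 3 for those without, against 17 and 3 for the windows of all genes. The next 4 windows are shown because they cover the inducible ligand Il6, the promoter of the IL-1 antagonist Il1rn, whose peak had the largest ratio between the groups among promoter peaks, the Il20ra promoter, which had a lower mean with mA2 dRNA, and the strongly open but CpG-poor start of the IL-1 receptor Il1r1. Capitals mark matches to the motifs defined after the sequences. The windows lie at chr5:30012864-30013113 for Il6, chr2:24336610-24336859 for Il1rn, chr10:19712337-19712586 for Il20ra and chr1:40224830-40225079 for Il1r1, all on the plus strand.
Il6: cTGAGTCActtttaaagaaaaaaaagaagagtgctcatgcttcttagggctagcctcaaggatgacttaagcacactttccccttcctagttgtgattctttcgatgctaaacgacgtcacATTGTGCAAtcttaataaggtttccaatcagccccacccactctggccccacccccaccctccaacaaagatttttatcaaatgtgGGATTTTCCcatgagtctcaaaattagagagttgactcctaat
Il1rn: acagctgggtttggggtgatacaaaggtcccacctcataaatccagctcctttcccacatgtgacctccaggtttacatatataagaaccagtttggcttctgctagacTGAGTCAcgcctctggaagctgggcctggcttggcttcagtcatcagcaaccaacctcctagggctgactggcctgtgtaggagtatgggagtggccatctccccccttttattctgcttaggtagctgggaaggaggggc
Il20ra: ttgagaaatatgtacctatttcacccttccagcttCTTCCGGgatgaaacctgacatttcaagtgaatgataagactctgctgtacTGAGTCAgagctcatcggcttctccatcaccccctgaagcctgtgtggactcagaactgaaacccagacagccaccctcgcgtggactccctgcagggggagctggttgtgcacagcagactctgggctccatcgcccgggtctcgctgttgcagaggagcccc
Il1r1: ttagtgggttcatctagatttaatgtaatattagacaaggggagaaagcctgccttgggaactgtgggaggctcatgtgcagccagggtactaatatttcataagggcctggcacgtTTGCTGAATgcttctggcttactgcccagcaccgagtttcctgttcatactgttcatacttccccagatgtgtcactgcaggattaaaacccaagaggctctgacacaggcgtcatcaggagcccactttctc

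The letters of 6 motifs were searched on both strands, and none of the motifs is contained in another. An AP-1 word (TGANTCA) begins 249 bases before the start of Il6, 141 before that of Il1rn and 164 before that of Il20ra. The Il6 window also holds a kappaB word (GGANTTTCC) 43 bases before the start and, on the minus strand, a C/EBP word (TTGCNNAAT) 129 bases before it. The Il20ra window holds an ETS word (CCGGAAG) on the minus strand at 215 bases, and the Il1r1 window a C/EBP word at 133 bases. The AP-1 word occurred in 13 of the 66 interleukin-family windows, or 19.7%, and in 6.75% of the windows of all genes. The kappaB word occurred in 5 windows, or 7.58%, and in 1.07% of all. The C/EBP word was in 4.55% and 2.11%, the ETS word in 4.55% and 6.91%, and the TATA box (TATAAA) in 18.2% and 12.4% of these windows and of all. The CRE word (TGACGTCA) was in none of the 66 windows and in 1.55% of all. A match describes letters and not a bound factor.

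The 28 windows with a peak covered the range from closed to open. The Il6st peak averaged 647 normalized reads with mA2 dRNA and 569 with Con dRNA, and the Il4ra peak 462 with mA2 and 388 with Con dRNA. The Il1r1 peak averaged 453 with mA2 dRNA and 456 with Con dRNA on a window with only 3 CpG dinucleotides. The Il1rn window, with 1 CpG, was at 78.7 with mA2 dRNA and 28.4 with Con dRNA. The Il6 peak covered just the last 45 of the 250 bases and stood at 234 with mA2 and 250 with Con dRNA. The start of Il1r2, a decoy receptor for IL-1, lay under a peak that the table gives to the gene model Gm16894, at 91.4 with mA2 dRNA and 108 with Con dRNA.

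**Figure D1:**
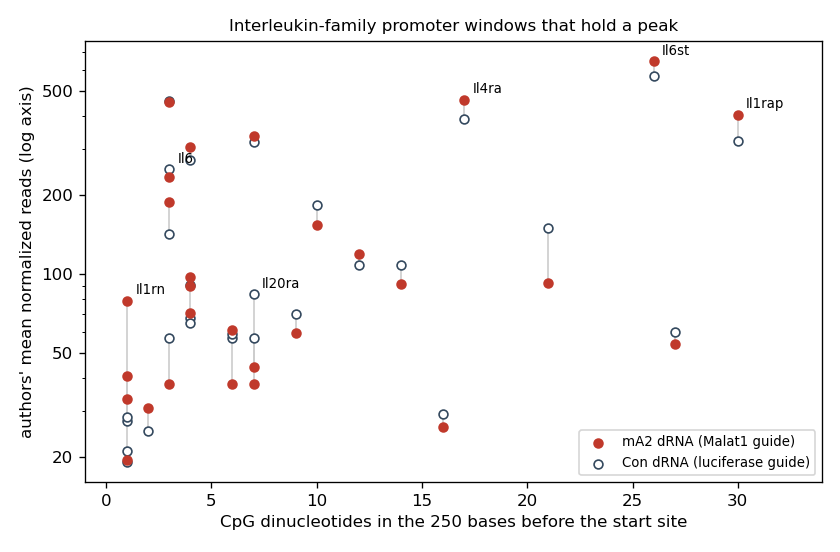
Each interleukin-family promoter window that overlaps a peak, with the number of CpG dinucleotides in its 250 bases on the horizontal axis and the authors' mean normalized reads of that peak on a log vertical axis, for mA2 dRNA (filled) and Con dRNA (open). Windows with 17 or more CpG span low and high levels, Il6st stands highest at 647 with mA2 and 569 with Con dRNA, and the Il1rn pair at 1 CpG is widely separated at 78.7 with mA2 and 28.4 with Con dRNA.

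With mA2 dRNA, 6 of the 281 peaks rose and none fell. The 6 are 2.14% of the family, and 2.23% of all peaks were called higher, so the share is near that of the whole table. Of all peaks 0.507% were called lower, by the adjusted p of the authors' deposited table in each case. At a p under 0.05 before adjustment in that table, 26 family peaks (9.25%) were higher and 5 (1.78%) lower, against 8.86% and 2.85% of all peaks. The median difference was 0.12 over the family and 0.09 over all peaks, and 166 family peaks (59.1%) had a higher mean with mA2 dRNA, as did 60.8% of all. Median levels over the family were 67.9 with mA2 dRNA and 59.0 with Con dRNA, against 76.3 with mA2 dRNA and 69.2 with Con dRNA over all peaks.

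The 6 peaks that rose belong to 6 genes, 4 ligands or antagonists and 2 receptor chains. The smallest adjusted p was at Il9, a cytokine of helper T cells and innate lymphoid cells that acts on mast cells. Its peak at chr13:56476803-56477203, 5.04 kb downstream of the start site and outside any RefSeq gene, averaged 223 normalized reads with mA2 dRNA and 101 with Con dRNA. The ratio is 2.20-fold, and the authors' deposited table lists its adjusted p as 0.00447. The other Il9 peak, 6.48 kb downstream, was close in both groups at 92.1 with mA2 and 78.6 with Con dRNA. Il2rb, the beta chain that IL-2 and IL-15 receptors share, had a 5' UTR peak at chr15:78493507-78493907 with 226 with mA2 dRNA and 105 with Con dRNA (2.14-fold, adjusted p = 0.0102 in the authors' deposited table). The other 4 Il2rb peaks were not called, and their differences ran between -0.42 and 0.48. Il15, the ligand of that chain that sustains natural killer and memory T cells, had the one called promoter peak of the family. It lies 0.257 kb inside the gene at chr8:82402565-82402965 and averaged 123 with mA2 dRNA and 55.2 with Con dRNA. The ratio is 2.23-fold, and the authors' deposited table lists its adjusted p as 0.0371. The other 9 Il15 peaks lay over 50 kb away, and 4 of them had a higher and 5 a lower mean. The most distant pair, 387 and 406 kb from the start, lies in the gene Inpp4b.

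The largest ratio of group means in the family was at Il1rn, the natural antagonist that occupies the IL-1 receptor without signalling. A peak 1.07 kb upstream at chr2:24335379-24335779 averaged 58.6 with mA2 dRNA and 13.4 with Con dRNA, 4.38-fold, and the authors' deposited table lists its adjusted p as 0.0364. By the authors' own log2 fold it stands at 0.992, close to the called Il9 peak at 0.996. The log2 ratio of the means at this Il1rn peak is 2.13. The promoter peak was at 78.7 with mA2 and 28.4 with Con dRNA (2.77-fold, adjusted p = 0.122 in the authors' deposited table) and an intron peak at 61.6 with mA2 and 28.2 with Con dRNA (2.18-fold, adjusted p = 0.191 in the authors' deposited table). So the mean with mA2 dRNA was well above that with Con dRNA at all 3 Il1rn peaks, and 1 of the 3 was called. Another called peak lies within 100 kb of them, assigned to the neighbour Psd4, with 214 with mA2 and 64.5 with Con dRNA, and the authors' deposited table lists its adjusted p as 1.93e-04. Its part in the Il1rn values was not tested. Il20rb is the chain shared by the IL-20 and IL-24 receptors, which are best known from epithelia. Its intron peak at chr9:100470848-100471248 averaged 54.0 with mA2 dRNA and 16.8 with Con dRNA, 3.20-fold, and the authors' deposited table lists its adjusted p as 0.0470. The authors' log2 fold for that peak is 0.912, against a log2 ratio of means of 1.68. Il17c encodes an IL-17 family ligand made by epithelial cells. Its peak at chr8:122423639-122424039, classed by the authors as intronic although it touches just the last base of the RefSeq gene, averaged 101 with mA2 dRNA and 43.2 with Con dRNA. That is 2.33-fold, and the authors' deposited table lists its adjusted p as 0.0470. No called peak of another symbol lay within 100 kb of the called Il9, Il2rb, Il15, Il20rb or Il17c peaks.

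**Figure D2:**
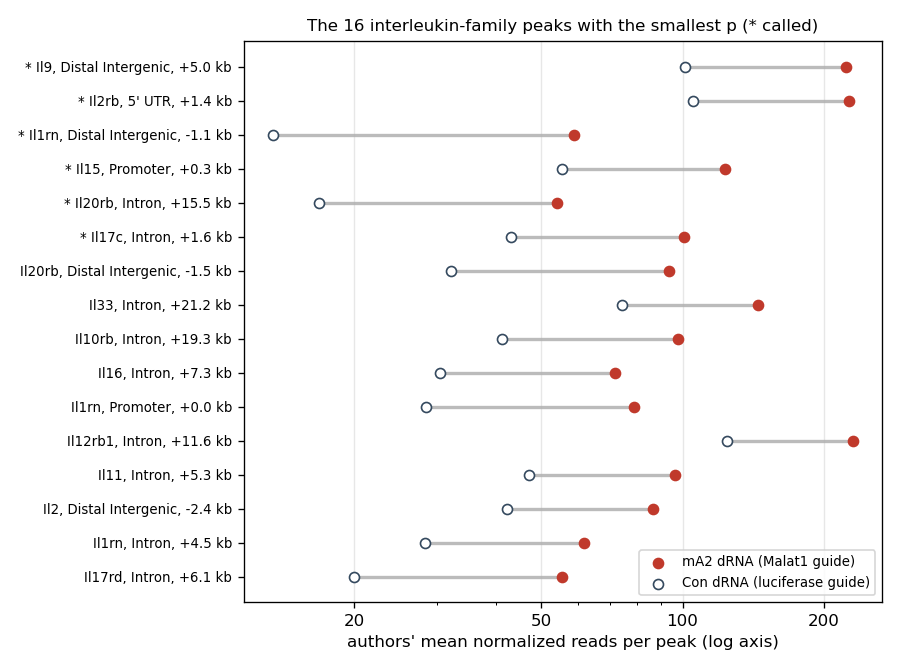
The 16 interleukin-family peaks with the smallest p, each with its annotation class and signed distance from the assigned start site, and the authors' mean normalized reads on a log axis with mA2 dRNA (filled) and Con dRNA (open). The 6 starred peaks were called; in all 16 the mean with mA2 dRNA is the higher, and the 3 Il1rn peaks span 58.6 to 78.7 with mA2 dRNA and 13.4 to 28.4 with Con dRNA.

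Several of these calls sat close to the threshold. Just inside were the peaks of Il15, Il20rb and Il17c given above. Just outside were an Il20rb peak 1.45 kb upstream of its start (93.5 with mA2 dRNA, 32.1 with Con dRNA), an Il33 intron peak (145 with mA2 and 74.4 with Con dRNA) and an Il10rb intron peak (97.8 with mA2 and 41.2 with Con dRNA). The authors' deposited table lists their adjusted p-values as 0.0678, 0.0777 and 0.0800. Every difference was also shifted by the median of all peaks, of the chromosome, of peaks of like abundance or of its 10 Mb window. The Il9 peak stayed called each time, with recomputed adjusted p between 0.0129 and 0.0496. It was just under the threshold for the chromosome (0.0496) and the 10 Mb window (0.0456). The Il2rb peak stayed called under 2 of those 4 shifts, and the other 4 peaks under none, with adjusted p between 0.0548 and 0.130.

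Among IL-1 family ligands and binding proteins, 1 of 28 peaks was called, the Il1rn peak, and the median difference was 0.36, against 0.09 over all peaks. Centred on the median of the chromosome the 28 peaks had a median of 0.16, and centred on the 10 Mb window one of 0.22, with 18 and 19 of the 28 on the higher side. The agonists Il1a and Il1b, the main fever and inflammation signals of the family, had no peak nearer than 7.45 kb to their starts. All 5 of their peaks had higher means with mA2 dRNA, and none was called or had a p under 0.05 before adjustment in the authors' deposited table. The nearest Il1b peak averaged 30.9 with mA2 dRNA and 17.9 with Con dRNA, and a more distant one 58.6 with mA2 and 32.0 with Con dRNA. The nearest Il1a peak averaged 24.6 with mA2 and 21.8 with Con dRNA. Il18, a ligand that drives interferon gamma, had a single promoter peak at 40.8 with mA2 dRNA and 21.1 with Con dRNA. Its soluble inhibitor Il18bp had a promoter peak at 34.5 with mA2 and 23.7 with Con dRNA. Il33, an alarmin stored in epithelial nuclei, had 16 peaks from 55.2 kb before its start to 23.1 kb inside the gene. Their means ran from 31.9 to 476 with mA2 dRNA and from 24.0 to 422 with Con dRNA. The peak on the Il33 start was level in both groups at 89.9 with mA2 and 90.3 with Con dRNA, and the differences of the 16 peaks ran from -0.54 to 0.96.

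Most receptor genes of this family are clustered on chromosome 1. The 43 peaks assigned to Il1r2, Il1r1, Il1rl2, Il1rl1, Il18r1 and Il18rap span chr1:40000903-40545026. Of these 31 had a higher and 12 a lower mean with mA2 dRNA, none was called, and 1 had a p under 0.05 before adjustment in the authors' deposited table. The median difference was 0.14, but relative to the median of their 10 Mb window 17 of the 43 were higher, with a median of -0.15. The strongest peak of all 281 lies here, in an intron of Il1r1 though assigned to Il1rl2, the IL-36 receptor, with 1055 with mA2 dRNA and 968 with Con dRNA. Il1rl1 encodes ST2, the receptor of IL-33, and its nearest peak averaged 475 with mA2 dRNA and 404 with Con dRNA. The Il1r1 promoter was at 453 with mA2 and 456 with Con dRNA, and that of the shared partner chain Il1rap, on chromosome 16, at 404 with mA2 and 321 with Con dRNA. In contrast the Il18r1 promoter was at 38.1 with mA2 dRNA and 56.8 with Con dRNA. Where IL-1, IL-33 and IL-36 receptor chains in this family had a promoter peak, it ranged from 33.4 (Il1rl2) to 453 (Il1r1) with mA2 dRNA. With Con dRNA the range was 27.4 (Il1rl2) to 456 (Il1r1). Il1rl1 had no peak classed as promoter, and its peak given above lies in an intron 6.34 kb from the start. An Il1rl1 peak classed as 5' UTR, at 188 with mA2 and 142 with Con dRNA, covers the 250 bases before another RefSeq start of the gene.

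The cytokines and receptors that signal through the common gamma chain, the common beta chain or Il4ra had 64 peaks, and the 3 called ones (Il9, Il15 and Il2rb) are described above. They are 4.69% of the 64, against 2.23% of all peaks called higher, a share that rests on 3 peaks. A peak 2.37 kb upstream of Il2, the growth factor of T cells, averaged 86.4 with mA2 dRNA and 42.2 with Con dRNA, and the authors' deposited table lists its adjusted p as 0.180. Il7, made by stroma and epithelium for developing lymphocytes, had a promoter peak at 298 with mA2 and 252 with Con dRNA. The Il3, Il5 and Il13 locus on chromosome 11 had 6 peaks, 5 of them with a lower mean with mA2 dRNA. The peak furthest to the lower side, 2.19 kb upstream of Il3, averaged 45.2 with mA2 dRNA and 91.4 with Con dRNA. It was not called (adjusted p = 0.308 in the authors' deposited table), and it was singled out after its values were seen. The receptor chain Il4ra was open at its start (462 with mA2 and 388 with Con dRNA), 6 of its 7 peaks had a higher mean, and their range of differences was -0.10 to 0.41.

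Of the 4 receptor peaks with a lower mean at a p under 0.05 before adjustment in the authors' deposited table, 3 were in this group. The 4 are 2.55% of all 157 receptor peaks, near the 2.85% of all peaks lower at that p. Among the 42 receptor peaks of this group, 3 were also higher at that p. The Il3ra promoter averaged 126 with mA2 dRNA and 200 with Con dRNA, which was the smallest p among family peaks with a lower mean. The authors' deposited table lists its adjusted p as 0.220. The other 3 Il3ra peaks, all over 50 kb away, had a higher mean. Of these, 1 was higher at a p under 0.05 before adjustment in that table, at 110 with mA2 and 62.4 with Con dRNA. Il13ra1 pairs with Il4ra in the receptor for IL-4 and IL-13, and its promoter was at 92.5 with mA2 dRNA and 149 with Con dRNA. Of its 7 peaks 6 had a lower mean. All of its peaks lie on chromosome X, where the median difference over all 1854 peaks was -0.12. The 16 family peaks on that chromosome had a median of -0.19, or -0.08 relative to the chromosome. Il2ra, the alpha chain of the high-affinity IL-2 receptor, had 3 peaks, all with a lower mean. Its intron peak, named after its values were seen, was at 60.0 with mA2 and 109 with Con dRNA. Neither Il13ra1 nor Il2ra nor Il3ra had a called peak. The Il15ra promoter was nearly level, at 119 with mA2 dRNA and 108 with Con dRNA.

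No peak of the IL-6 and IL-12 group was called, in 50 ligand peaks and 33 receptor peaks. At a p under 0.05 before adjustment in the authors' deposited table, 4 and 1 of them had a higher mean. Neither count is a larger share than the 8.86% of all peaks higher at that p. Il6, the prototype inflammatory cytokine of the group, had a promoter peak at 234 with mA2 dRNA and 250 with Con dRNA, and the authors' deposited table lists its adjusted p as 0.987. Its 7 peaks had differences from -0.70 to 0.43. Il11, a relative of IL-6 that uses the same gp130 chain, had 2 intron peaks. They averaged 96.2 and 54.4 with mA2 dRNA, against 47.0 and 36.2 with Con dRNA. The smaller adjusted p of the pair, from the authors' deposited table, was 0.125. The shared receptor chain Il6st and the IL-6 binding chain Il6ra had the most open promoters of the family, Il6ra with 680 with mA2 and 792 with Con dRNA and Il6st with 647 with mA2 and 569 with Con dRNA. At 792 with Con dRNA, Il6ra stood at the 91.0th percentile of all promoter peaks. Il12rb1, a chain shared by the IL-12 and IL-23 receptors, had an intron peak at 231 with mA2 dRNA and 124 with Con dRNA, and the authors' deposited table lists its adjusted p as 0.124. All 4 peaks of Il23r, the other IL-23 receptor chain, had a lower mean with mA2 dRNA.

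Il12a and Il12b, which encode the subunits of IL-12, carried 23 and 14 peaks, most of them far from the start site. Of the Il12a peaks 15 lie in the neighbouring gene Schip1, up to 242 kb away. Those 15 had a median difference of -0.07 and means of up to 680 with mA2 dRNA and 705 with Con dRNA. The 8 Il12a peaks outside Schip1 had a median difference of 0.21 and reached 329 with mA2 and 373 with Con dRNA. The Il12b promoter peak was at 57.6 with mA2 dRNA and 49.4 with Con dRNA. Across the family 109 of 281 peaks overlap the assigned gene itself in RefSeq, 54 overlap only another gene and 118 overlap none. Peaks over 50 kb from the start site numbered 58, of 16 genes, and none was called, against 3.56% called higher among all peaks at that distance. At a p under 0.05 before adjustment in the authors' deposited table, 3 of them (5.17%) were higher. Among all peaks at any distance the share higher at that p was 8.86%. Within 3 kb there were 56 peaks of 43 genes, of which 4 (7.14%) were called higher, against 1.33% of all peaks within 3 kb. The difference between near and distant family peaks was not tested.

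Peaks of the same gene often lay on both sides of 0. Of 38 genes with 3 or more peaks, 6 had a higher mean with mA2 dRNA at every peak: Il1rn, Il1a, Il1rap, Il27ra, Il31ra and Il4i1. At Il27ra, the receptor chain for IL-27, all 3 differences were under 0.07, and centred on the median of all peaks they were on the lower side. The 3 genes with a lower mean at every peak were Il20ra, Il23r and Il2ra. Relative to the chromosome or to the 10 Mb window, Il1rn, Il1a and Il4i1 still had every peak higher and Il23r and Il2ra every peak lower. The remaining 29 genes were mixed, among them Il6st, with 9 of 13 peaks higher and differences from -0.19 to 1.28, and Il6ra, with 2 of 6 higher and differences from -0.41 to 0.29. Another 15 genes had a single peak.

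Called peaks that the authors assigned to other genes also lay within 100 kb of interleukin-family peaks. There were 8 of them, the Psd4 peak included, and all 8 rose with mA2 dRNA. Of all 2211 called peaks, 1801 (81.5%) were higher. The 8 were not set against the number of all neighbouring peaks. Whether called peaks are more frequent near these genes than in the whole table was therefore not tested. Near Il5 were a peak of Irf1, an interferon-response factor, at 418 with mA2 and 261 with Con dRNA, and one of the gene model Gm12216 at 90.5 with mA2 and 24.6 with Con dRNA. Near Il6st was an Ankrd55 peak at 227 with mA2 and 116 with Con dRNA. The others belonged to Septin8 near Il13, Plet1 near Il18, Spata5 near Il21 and Ranbp6 near Il33. The family's own peaks at Il5, Il13, Il18, Il21, Il33 and Il6st were not called, and the neighbours are given for their position alone.

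**Figure D3:**
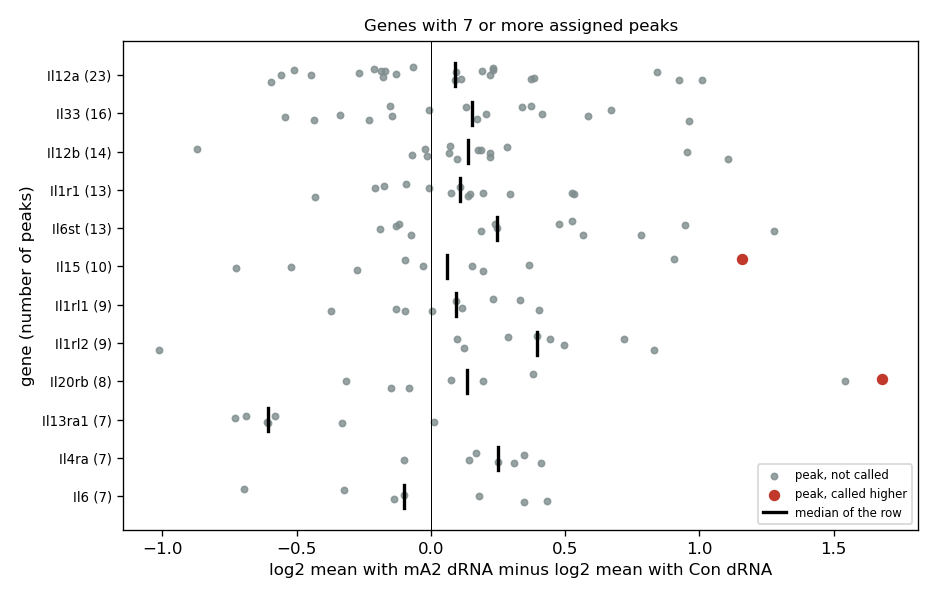
Differences (log2 mean with mA2 dRNA minus log2 mean with Con dRNA, horizontal axis) for genes with 7 or more assigned peaks, 1 point per peak with the number of peaks in brackets and a bar at each gene's median. Most rows straddle 0, the 7 Il13ra1 peaks lie mainly to the left, and the called peaks are those of Il15 and Il20rb.

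The IL-10 group held the lowest medians. Its ligands, Il10, Il20 and Il24, lie together on chromosome 1, and 7 of their 9 peaks had a lower mean with mA2 dRNA (median difference -0.25, none called and none at a p under 0.05 before adjustment in the authors' deposited table). A peak 18.2 kb downstream of Il10, the main anti-inflammatory interleukin, averaged 193 with mA2 dRNA and 281 with Con dRNA. A peak 4.92 kb upstream of Il24 was at 90.8 with mA2 and 145 with Con dRNA. Both chains of the IL-20 receptor are in the group, and a difference between them was not tested. Il20ra had 4 peaks, all with a lower mean and with its promoter at 44.2 with mA2 dRNA and 83.5 with Con dRNA (adjusted p = 0.338 in the authors' deposited table). The partner chain Il20rb had the called intron peak and the near-threshold upstream peak, while the 6 Il20rb peaks over 30 kb away were split evenly, with 3 higher and 3 lower means. Il10rb had a higher mean in 2 of its 3 peaks, the strongest at 231 with mA2 dRNA and 154 with Con dRNA. That peak, classed as 5' UTR, spans the RefSeq start of Il10rb, while the Il10rb peak with a lower mean overlaps only the gene Ifnar2. The Il22ra1 promoter, which belongs to the epithelial IL-22 receptor, was at 59.5 with mA2 and 70.0 with Con dRNA.

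IL-17 family ligands had 10 peaks, of which the Il17c peak alone was called, and 5 had a lower mean. The receptor of IL-17C is built from Il17ra and Il17re. The Il17ra promoter was at 128 with mA2 dRNA and 179 with Con dRNA, while a peak 9.73 kb upstream was at 83.7 with mA2 and 45.6 with Con dRNA. The Il17re promoter was low in both groups, at 30.7 with mA2 and 25.2 with Con dRNA. Il17rc, which pairs with Il17ra for IL-17A, was open at 304 with mA2 and 273 with Con dRNA. Il17rd, a receptor-like inhibitor of growth factor signalling, had an intron peak at 55.4 with mA2 dRNA and 19.99 with Con dRNA, and the authors' deposited table lists its adjusted p as 0.205. None of the 13 receptor peaks was called, and 2 were higher at a p under 0.05 before adjustment in the authors' deposited table. Of all peaks 8.86% were higher at that p, and a difference from that share was not tested. Il25, an IL-17 family ligand of allergic inflammation, had a single peak 2.35 kb upstream at 180 with mA2 and 242 with Con dRNA. Finally, Il16 and Il4i1 share the symbol but belong to no such family, Il16 being a chemoattractant and Il4i1 an amino acid oxidase. The Il16 intron peak averaged 71.8 with mA2 dRNA and 30.4 with Con dRNA (adjusted p = 0.102 in the authors' deposited table), and the Il4i1 promoter peak 55.8 with mA2 and 28.5 with Con dRNA. In RefSeq that Il4i1 peak overlaps only the gene Il4i1b.

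**Figure D4:**
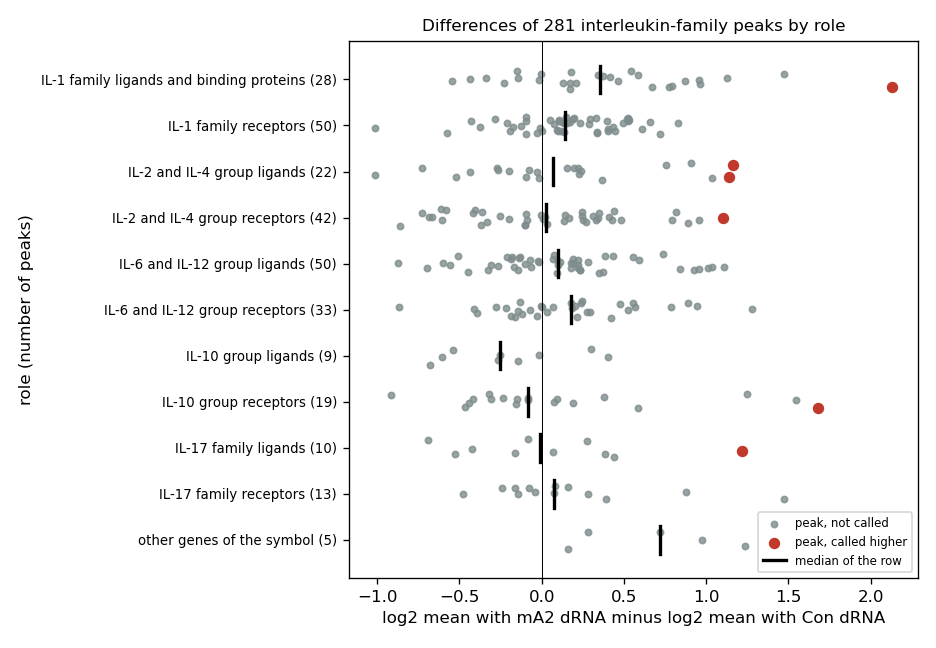
Differences (log2 mean with mA2 dRNA minus log2 mean with Con dRNA, horizontal axis) of all 281 peaks in 11 role groups, with the number of peaks in brackets, called peaks enlarged and a bar at each median. IL-1 family ligands have a median of 0.36 (0.16 centred on the chromosome) and IL-10 group ligands one of -0.25, each row spreads to both sides of 0 except the 5 peaks of other genes, and the 6 called peaks lie at 1.10 or above.

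Promoter peaks of the family were weak compared with those of other genes. The 37 peaks of the promoter class, of 34 genes, had median levels of 78.7 with mA2 dRNA and 70.0 with Con dRNA, against 278 with mA2 dRNA and 265 with Con dRNA for all 13620 promoter peaks. Receptors had a promoter peak more often, in 21 of 35 genes, than ligands and binding proteins, in 12 of 31, a difference that was not tested. Receptor promoters had medians of 108 with mA2 and 129 with Con dRNA, and ligand promoters of 58.4 with mA2 and 39.2 with Con dRNA. Peak by peak, the median difference at receptor promoters was 0.006, with 11 higher and 11 lower means. At ligand promoters it was 0.23, with 9 higher and 5 lower means. The 5 highest with Con dRNA all belonged to receptor chains: Il6ra, Il6st, Il1r1, Il4ra and Il1rap. The 5 lowest were those of Il13ra2, a decoy receptor for IL-13, at 19.4 with mA2 dRNA and 19.1 with Con dRNA, of Il18, of Il18bp, an inner Il33 promoter peak (31.9 with mA2 and 24.0 with Con dRNA) and Il23a, the IL-23 subunit (35.3 with mA2 and 24.0 with Con dRNA). By class, 129 family peaks (45.9%) were intergenic against 33.3% of all peaks, 87 (31.0%) intronic against 38.4%, and 37 (13.2%) at promoters against 16.8%.

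**Figure D5:**
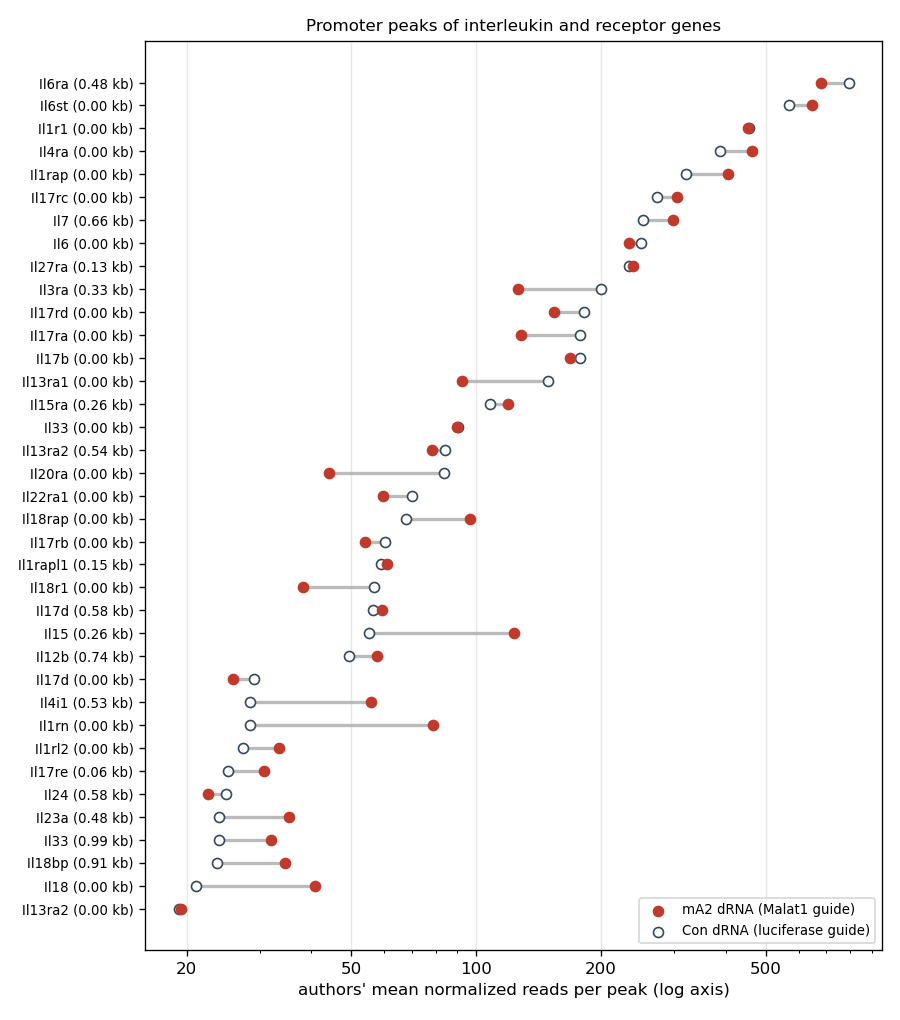
Every promoter peak of an interleukin or receptor gene, ordered by level with Con dRNA and labelled with its distance from the start site, with the authors' mean normalized reads on a log axis for mA2 dRNA (filled) and Con dRNA (open). Receptor chains fill the top from Il6ra at 680 with mA2 and 792 with Con dRNA, and the widest gaps are at Il1rn (78.7 with mA2 and 28.4 with Con dRNA) and Il15 (123 with mA2 and 55.2 with Con dRNA), of which Il15 was called.

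The genes that relay interleukin signals were taken from a list of 51, of which 47 had a peak, 269 peaks in all. Of these peaks 2 rose (0.743%) and 3 fell (1.12%) with mA2 dRNA, against 2.23% and 0.507% of all peaks, and the median difference was 0.11, against 0.09 over all peaks. Socs1, the feedback inhibitor of JAK kinases, had a 3' UTR peak at 586 with mA2 dRNA and 376 with Con dRNA (1.56-fold, adjusted p = 0.00549 in the authors' deposited table). A promoter peak of Stat5a, the factor that IL-2 family receptors activate, was at 731 with mA2 and 516 with Con dRNA (1.42-fold, adjusted p = 0.0256 in the authors' deposited table). Peaks assigned to Tab2, an adaptor between IL-1 receptors and NF-kappaB, Jak2, a kinase bound to cytokine receptors, and Lifr, a partner of gp130, fell. The Tab2 peak lies in an intron 268 kb from the start site and was at 17.0 with mA2 dRNA and 74.2 with Con dRNA. The Jak2 peak, intergenic and 17.4 kb from the start, was at 69.7 with mA2 and 181 with Con dRNA. The Lifr intron peak was at 96.8 with mA2 and 209 with Con dRNA. The authors' deposited table lists their adjusted p-values as 0.00467 for Tab2, 0.00473 for Jak2 and 0.0255 for Lifr. Under the same 4 shifts of the differences, the count of 2 higher became 1 or 0, and the count of 3 lower became 3 or 4.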

How the data were processed

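ATAC-seq peaks were analysed from the authors' deposited annotated table. The tools were MACS2, DiffBind, ChIPseeker, deepTools, Bowtie2, Picard and FastQC, named without version or role, and the build was mm10, per the submitters' processing notes. Per the file headers, each peak carries the authors' log2 mean normalized reads per group (headed dmA12 and dLuc), a log2 fold, a p-value and an adjusted p-value. The group dmA12 was read as mA2 because the series holds 1 contrast. Which test gave the deposited p-values, and how libraries were normalized, none of the sources used here states. The adjusted p matched Benjamini-Hochberg over all peaks within 7.4e-06. Means were back-transformed from the deposited log2 values, and folds are ratios of those means, not the authors' fold. For the 6 called peaks the authors' log2 folds ran from 0.811 to 0.996, against log2 ratios of means from 1.10 to 2.13. The 4 per-library columns matched no label and were not used, so only the authors' p-values test differences, over 2 samples a group.

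Centred p-values were recomputed from the shifted difference and the standard error implied by the authors' p, then adjusted over all peaks, and the script was tested on simulated data (Python 3.11.15, pandas 2.3.3, numpy 2.4.6, scipy 1.17.1). The running median used 2001 peaks, and a 10 Mb window with under 20 peaks took its chromosome's median. RefSeq gene and promoter tables of GRCm38.p6 gave names, neighbours and sequences. Named peaks are every called peak, the best peak of the 3 genes with the smallest p in each role group, the peak nearest the start of 19 chosen genes, the 5 highest and 5 lowest promoter peaks with Con dRNA, the 3 genes with most peaks, and the 3 peaks on each side of the threshold. Other named peaks were chosen after their values were seen. Members, role groups, signalling genes, motifs and markers were chosen with earlier results of these data known.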

Additional observations from a re-analysis of the deposited data

How the results depend on the processing

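The count of 6 interleukin-family peaks called higher fell to 2 when differences were centred on the median of all peaks or on a running median along abundance, and to 1 when centred on the chromosome or on the 10 Mb window. It was 1 at a threshold of 0.01. It stayed at 6 without peaks under 20 normalized reads, within 50 kb of the start site, and without Il1rapl1, Il1rapl2 and Il4i1, and the count called lower was 0 throughout. No called peak lay over 50 kb away or belonged to Il1rapl1 or Il4i1, and Il1rapl2 had no assigned peak. The low filter left out none of the 6 either. It kept the called Il1rn and Il20rb peaks, although these averaged 13.4 and 16.8 with Con dRNA. None of these settings could therefore lower the count, and they say nothing about how stable it is. The 2 signalling peaks called higher became 1 under the all-peak and abundance centrings and at 0.01, and 0 under the chromosome and window centrings. The 3 signalling peaks called lower became 2 at 0.01 and 2 within 50 kb of the start site. They became 4 under the chromosome and window centrings. The median difference of 0.12 became 0.033, 0.029, 0.030 and 0.0 under the all-peak, chromosome, abundance and window centrings, 0.13 without low peaks or without distant ones, and 0.12 without Il1rapl1, Il1rapl2 and Il4i1. The all-peak shift itself was 0.09. Of 52 named peaks, few changed sign: Il1rl1 (-0.052, window), the Il6st promoter (-0.045 chromosome, -0.054 window), Il17rc (-0.037, window), Il15ra (-0.0045, chromosome) and Il13ra2 (-0.072 all-peak, -0.057 abundance). The centrings were applied to single genes and loci after seeing the data: the 31 of 43 higher peaks of the IL-1 receptor cluster became 17 under the window centring and 29 to 31 under the others, while 5 of 5 Il1a and Il1b peaks stayed higher under all 4. The cause of these changes was not tested beyond the shifts themselves. The planned edgeR and DESeq2 fits and the fits leaving out a library were not run, since the per-library columns match no label. No paired analysis was possible because the group columns are the authors' means and carry no replicate number. Depth per library is unknown, so what it limits was not measured.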
